A study of Mus musculus with 8 samples.

Results

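The genes described are 9 complement components and regulators: C4b, C2, Cfb, C3, Cfp, the receptor genes C3ar1 and C5ar1, and the cell-surface regulator genes Cd55 and Cd59a. Each was matched by its symbol to 1 row of the deposited table, which held 54532 gene identifiers. The genes were chosen by their measured difference between the 2 genotypes in these same libraries, so their levels are given as a description and without a test. The libraries came from sorted LSK cells of C57BL/6 mouse bone marrow. This fraction carries Sca-1 and c-Kit but no lineage markers, and it holds the haematopoietic stem cells and early progenitors. There were 3 libraries of genotype Runx1-Runx1t1 (AML1/ETO, the fusion made by the t(8;21) translocation of acute myeloid leukaemia) and 5 of wild-type controls. Poly(I:C), a synthetic mimic of viral RNA that induces interferon, was given to both groups in 4 doses of 5 mg/kg, and the marrow was taken 4 weeks later. The labels do not state the promoter or Cre that drives the fusion, the age or sex of the mice, or whether each library is a separate animal, so the spread between libraries may be partly technical. Positions are in mm10 throughout.

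Complement is a cascade of blood proteins that coats and lyses microbes and damaged cells. The classical and lectin pathways cleave C4 and C2 to build a convertase that cuts C3; the alternative pathway builds its convertase from C3b and factor B, and properdin stabilises it. The fragments C3a and C5a signal through the receptors encoded by C3ar1 and C5ar1. Host cells are protected by the membrane proteins CD55, which speeds the decay of the convertases, and CD59, which blocks the membrane attack complex. The liver makes most complement of the plasma, and blood cells of several lineages make components of their own.

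Promoter sequences are shown for Cd59a, Cd55, C3 and Cfp, the 4 genes whose groups did not overlap and for which RefSeq (GRCm38.p6) gave an entry. In all, 6 of the 9 genes had one, and C4b, C2 and Cfb did not. Each window holds 250 bases before and 50 bases after the annotated start, written 5′ to 3′ on the gene's strand. The windows are chr2:104095551-104095850 (plus strand) for Cd59a, chr1:130462695-130462994 (minus strand) for Cd55, chr17:57228087-57228386 (minus strand) for C3 and chrX:20931506-20931805 (minus strand) for Cfp. Capitals mark matches on either strand to TGTGGT (the RUNX core, shown because RUNX1 supplies the DNA-binding part of the fusion), GAGGAA (an ETS core such as PU.1 binds), the interferon-stimulated response element (GAAA, any 2 bases, GAAA) or TTCNNNGAA (a STAT element).
Cd59a: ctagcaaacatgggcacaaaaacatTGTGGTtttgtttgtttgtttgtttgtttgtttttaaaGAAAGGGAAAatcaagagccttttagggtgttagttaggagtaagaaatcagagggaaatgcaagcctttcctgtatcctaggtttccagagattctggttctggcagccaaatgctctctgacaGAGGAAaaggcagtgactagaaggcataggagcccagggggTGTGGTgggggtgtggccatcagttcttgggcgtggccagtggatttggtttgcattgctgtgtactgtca
Cd55: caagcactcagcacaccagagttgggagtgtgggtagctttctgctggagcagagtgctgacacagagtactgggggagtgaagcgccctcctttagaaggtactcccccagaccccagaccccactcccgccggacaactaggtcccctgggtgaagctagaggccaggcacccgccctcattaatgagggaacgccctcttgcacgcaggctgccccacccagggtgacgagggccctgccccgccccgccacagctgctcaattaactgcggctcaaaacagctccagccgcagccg
C3: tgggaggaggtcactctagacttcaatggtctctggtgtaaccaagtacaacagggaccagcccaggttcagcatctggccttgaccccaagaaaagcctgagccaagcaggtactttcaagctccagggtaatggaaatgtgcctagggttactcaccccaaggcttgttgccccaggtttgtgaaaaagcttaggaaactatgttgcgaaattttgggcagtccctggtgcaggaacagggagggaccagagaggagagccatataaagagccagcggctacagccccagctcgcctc
Cfp: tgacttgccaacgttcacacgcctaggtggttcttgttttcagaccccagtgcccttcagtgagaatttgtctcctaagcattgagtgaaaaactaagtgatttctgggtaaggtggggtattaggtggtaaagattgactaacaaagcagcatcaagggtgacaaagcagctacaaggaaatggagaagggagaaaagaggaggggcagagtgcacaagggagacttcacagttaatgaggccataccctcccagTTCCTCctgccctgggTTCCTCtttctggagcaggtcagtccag
The Cd59a window held 2 RUNX matches, beginning at bases 26 and 230 of the window, 1 interferon-stimulated response element at base 64 and 1 ETS match at base 189. The Cfp window held 2 ETS matches, at bases 257 and 273. No match to these 4 motifs was in the Cd55 and C3 windows. Of 32851 promoter windows of the same length, 16.8% held the RUNX core, 28.3% the ETS core, 3.44% the interferon-stimulated response element and 8.3% the STAT element. A looser NF-kappaB pattern (GGG, any 5 bases, CC; both strands, not in capitals) had matches in all 4 windows and in 50.8% of all windows.

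The libraries held 14693080 to 17527043 counted reads. Ly6a, which encodes Sca-1, stood at 221 to 921 CPM (reads scaled to a common library size) with the fusion and at 8.26 to 23.4 CPM without it, although both groups were sorted for Sca-1. Kit stood at 913 to 1697 and at 378 to 469 CPM. Runx1t1, the gene of the ETO part of the fusion, ranged over 712 to 1971 reads with the fusion and 27 to 132 without. Xist, which is transcribed from an inactive X, ranged over 28559 to 33151 reads with the fusion and 0 to 111 without, while the Y-linked Ddx3y had 0 and 3688 to 5038. Genotype and this sex-linked pattern cannot be told apart in any difference below. Scarce transcripts were often missed: where the remaining libraries of a group predicted 20 to 50 reads for a gene, 41.4% to 51.1% of such genes were at 0 in an AML1/ETO library and 10.5% to 46.2% in a control, highest in control library 1. Where 200 to 500 reads were predicted, at most 0.751% were at 0. Limits and intervals below cover counting error only.

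The 9 genes differed in direction between the genotypes. C4b, C2, Cd55 and Cd59a were higher in every AML1/ETO library than in any control, C3 and Cfp were lower in every AML1/ETO library than in any control, and the groups overlapped for C3ar1. Cfb and C5ar1 had too few reads to enter the fit. In these bulk libraries, fewer cells of a type and less RNA per cell cannot be told apart. In the fit across 15009 genes (edgeR's quasi-likelihood test at an adjusted p under 0.05), 4 of the 7 fitted members were called higher, beside 11.6% of all tested genes, and 2 were called lower, beside 14.2%. Groups that do not overlap were seen upward for 14.1% and downward for 17.5% of all tested genes. Because the members were chosen with this contrast known, nothing is read from these counts. With library totals as the only scaling, the median fitted difference of all genes shifted by −0.146 (log2), and the members kept their directions.

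**Figure D1:**
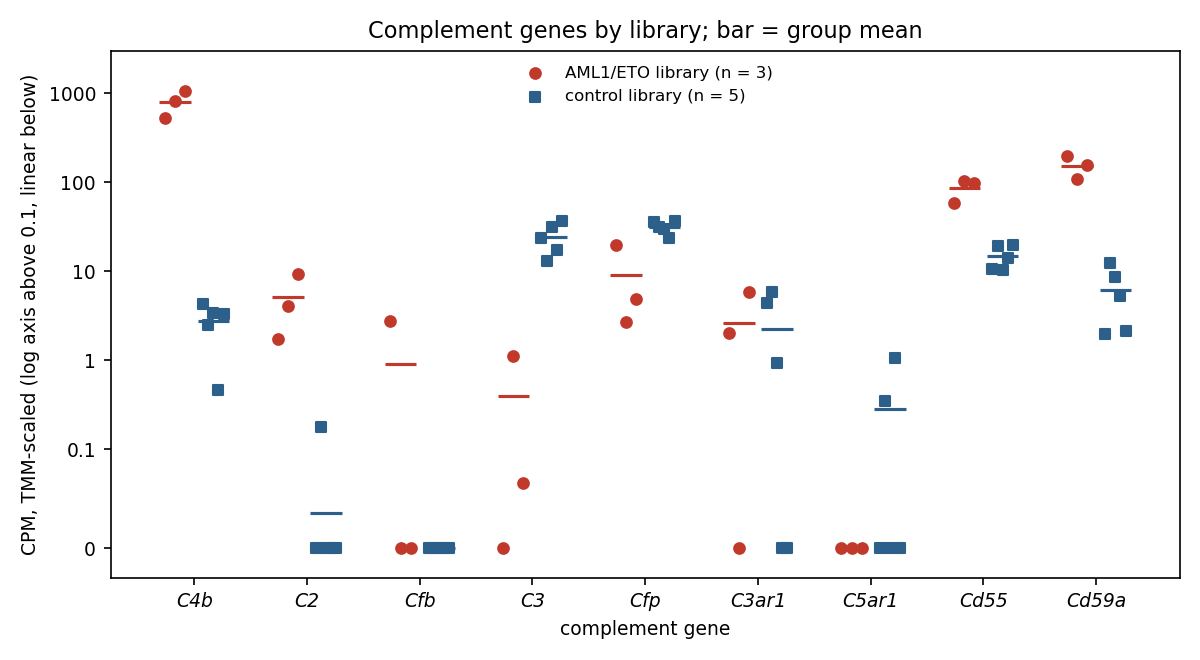
TMM-scaled CPM of the 9 complement genes in each library, on a vertical axis that is logarithmic above 0.1 CPM and linear below; circles are the 3 AML1/ETO libraries, squares the 5 controls, and bars group means. C4b stands at 529 to 1066 CPM in the AML1/ETO libraries, against 0.466 to 4.27 CPM in the controls, whereas C3 stands at 0 to 1.12 and at 13.1 to 36.3 CPM.

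Among the components of the classical pathway, C4b showed the widest separation. C4b (ENSMUSG00000073418, chromosome 17, 34728380 to 34743882, minus strand) encodes complement C4, whose cleavage by C1s or the MASP proteases starts the convertase. AML1/ETO libraries 1, 2 and 3 held 6987, 12966 and 16295 reads, and control libraries 1 to 5 held 73, 42, 62, 8 and 57. The smallest AML1/ETO count was thus far above the largest control count. The means were 802 ± 268 CPM (SD, n = 3) and 2.78 ± 1.44 CPM (SD, n = 5), a 289-fold difference (fitted log2 difference 8.17, SE 0.49). With any 1 library left out the fold stood between 239 and 338.

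C4b has a close copy, C4a, which lies 80.7 kb further along chromosome 17 and encodes the sex-limited protein, a C4 relative without haemolytic activity that takes its name from its expression in males of some strains. Of all windows of 100 bases in the longest C4b transcript, 16.5% were also found letter for letter in C4a transcripts, so a minority of reads could have been assigned to either gene or to neither. C4a was scarce in both groups. It had 36, 8 and 25 reads in the AML1/ETO libraries and 0, 67, 26, 87 and 94 in the controls, and its groups overlapped (1.62 ± 1.11 against 3.16 ± 2.36 CPM; log2 fold change −0.96, SE 1.46, edgeR adjusted p = 0.704).

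C2 (chromosome 17, 34862604 to 34898265, minus strand) encodes the serine protease that joins C4b protein in the classical convertase. It was scarce: AML1/ETO libraries 1, 2 and 3 held 23, 65 and 144 reads, control library 2 held 3, and the other 4 controls held none. Over the pooled reads the rate was 151 times that of the controls (exact 95% interval from 51.1 to 738, counting error only), or 87.3 times without AML1/ETO library 3 (interval from 28.9 to 431). Without control library 2, where no control read is left, the mean was at least 29.5-fold higher, with 3 reads per library as the floor. Cfb (chromosome 17, 34856374 to 34862518, minus strand), which encodes factor B, the alternative-pathway counterpart of C2, had 36 reads in AML1/ETO library 1 and none in the other 7 libraries.

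The exons of C2 and Cfb are shared with other annotated genes, which touches both counts. Of the C2 exon bases 46.9% are also exons of Gm20547, a same-strand model that reaches from Cfb into C2, or of Zbtb12 on the opposite strand. For Cfb, 79.5% of exon bases are shared with Gm20547, which itself had no read in any library. The sources do not say how the counting treated reads in shared exons or whether it used strand, so such reads may be missing from the C2 and Cfb counts. The exons of C4b, C3, Cfp, C3ar1, C5ar1 and Cd59a overlap no exon of another gene, and 2.1% of Cd55 exon bases lie opposite Gm16083.

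C3 and Cfp, components that act in the alternative pathway, were lower in the AML1/ETO libraries. C3 (chromosome 17, 57203970 to 57228136, minus strand) encodes the central protein on which all complement pathways converge. It was counted 0, 18 and 1 times in AML1/ETO libraries 1, 2 and 3, against 406, 223, 579, 295 and 632 in the controls. Each control thus held more than 10 times the reads of the highest AML1/ETO library. The means were 0.397 ± 0.631 CPM (SD, n = 3) and 24.4 ± 9.7 CPM (SD, n = 5), which is 61.6-fold lower (fitted log2 difference −5.87, SE 0.99). The size of this fold rests on AML1/ETO library 2: without it 1 read remained, and the pooled rate was 700 times lower (exact 95% interval from 125 to 27653).

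Cfp (chromosome X, 20925454 to 20931555, minus strand) encodes properdin, which stabilises the alternative convertase and is made by myeloid and T cells. It was counted 259, 43 and 75 times in AML1/ETO libraries 1, 2 and 3 and 607, 540, 546, 403 and 646 in the controls. All AML1/ETO libraries were below all controls, with library 1 nearest to them. The means were 9.07 ± 9.2 CPM (SD, n = 3) and 31.5 ± 5.33 CPM (SD, n = 5), 3.48-fold lower (fitted log2 difference −1.80, SE 0.55) or 8.31-fold lower without AML1/ETO library 1. Cfp is X-linked, and the groups differ in sex-linked transcripts. Of 487 tested genes on X, 12.9% were called lower and 9.45% higher.

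The receptors of the anaphylatoxins were barely detected. C3ar1, which encodes the C3a receptor, had 27, 0 and 89 reads in the AML1/ETO libraries and 76, 99, 17, 0 and 0 in the controls. Libraries with reads and libraries without occurred in both groups (2.62 ± 2.95 against 2.24 ± 2.71 CPM; fitted log2 difference 0.23, SE 1.93), and the sign of the difference changed when single libraries were left out. At 20 to 50 expected reads, zeros in single libraries were common among genes in general. At 50 to 100, 16.1% to 22.1% of genes were at 0 in an AML1/ETO library. In a control the share was 0.648% to 19.6%, highest in control library 1, which held C3ar1 reads. In control libraries 4 and 5, where C3ar1 was at 0, the shares were 2.69% and 6.36%. At 20 to 50 expected reads they were 17% and 27% in the same 2 libraries. C5ar1, which encodes the C5a receptor, had 6 reads in control library 2, 18 in control library 4 and none elsewhere. No read in the AML1/ETO libraries allows up to 3 reads in each, or 0.187 to 0.227 CPM, so a difference in C5ar1 was not detectable at this depth.

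The genes of the membrane regulators were higher in the AML1/ETO libraries. Cd59a (chromosome 2, 104095801 to 104115354, plus strand), which encodes the inhibitor of the membrane attack complex, was counted 2572, 1763 and 2389 times in AML1/ETO libraries 1, 2 and 3. The controls had 34, 213, 156, 91 and 37 reads. The AML1/ETO counts were close to each other, while the controls spread more widely, with a coefficient of variation of 73.5% against 27.6%. The means were 154 ± 42.3 CPM (SD, n = 3) and 6.1 ± 4.48 CPM (SD, n = 5), 25.2-fold higher (fitted log2 difference 4.65, SE 0.53) and between 21.6 and 34.2-fold with 1 library left out.

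Cd55 (chromosome 1, 130439027 to 130462744, minus strand), which encodes decay-accelerating factor, had 772, 1626 and 1488 reads in the AML1/ETO libraries and 180, 325, 187, 241 and 344 in the controls. The groups did not overlap, and the spread was alike in both, at 27.7% and 30.7% of the mean. The means were 85.8 ± 23.8 CPM (SD, n = 3) and 14.7 ± 4.52 CPM (SD, n = 5), 5.83-fold higher (fitted log2 difference 2.54, SE 0.29). Each of these regulators has a neighbouring copy in the mouse. Cd59b had 1, 68 and 83 reads in the AML1/ETO libraries, 10 in control library 2 and none in the other controls, and was too scarce to be tested. Cd55b had no read in any library. Of windows of 100 bases, 0.293% of Cd59a and 5.5% of Cd55 were also found in the copy.

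**Figure D2:**
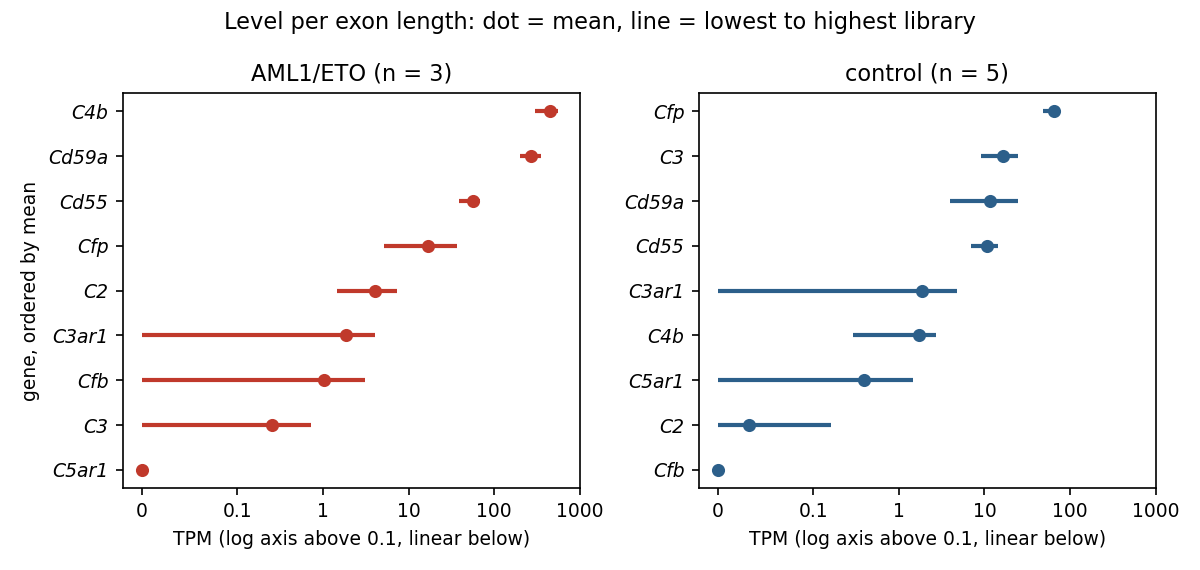
Level per exon length (TPM, reads per kilobase of exon scaled to the same sum in each library) of the 9 genes in the AML1/ETO and control libraries, on a horizontal axis that is logarithmic above 0.1 and linear below; dots are means and lines run from the lowest to the highest library. C4b and Cd59a lead in the AML1/ETO libraries, at means of 445 and 270 TPM, and Cfp leads in the controls, at 64 TPM.

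Levels of different genes were compared per exon length, in TPM. In the AML1/ETO libraries the order of mean levels was C4b (445 TPM), Cd59a (270 TPM), Cd55 (56.2 TPM), Cfp (16.8 TPM), C2 (4.08 TPM), C3ar1 (1.87 TPM), Cfb (1.04 TPM), C3 (0.254 TPM) and C5ar1 at 0. C4b and Cd59a overlapped in range, Cd59a stood above Cd55 and Cd55 above Cfp without overlap, and each later neighbour overlapped the next. In the controls the order was Cfp (64 TPM), C3 (16.6 TPM), Cd59a (11.7 TPM), Cd55 (10.7 TPM), C3ar1 (1.85 TPM), C4b (1.71 TPM), C5ar1 (0.387 TPM), C2 (0.0323 TPM) and Cfb at 0. There Cfp stood above C3 without overlap, C3, Cd59a and Cd55 overlapped each other in turn, and Cd55 stood above C3ar1 without overlap. C4b thus moved from the sixth to the first place. With the longest transcript as the length, Cd55 and Cd59a changed places in the controls, and the AML1/ETO order stayed the same.

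The other genes of the complement system were read from a list of 50, and most were silent or scarce in these cells. In all libraries 22 had no read, among them Serping1, Hc (which encodes C5), C6, C9 and the mannose-binding lectin genes Mbl1 and Mbl2. A further 11 had reads but were too scarce to be tested. Of the 17 tested genes, 2 rose and 2 fell, shares of the tested genes close to the 11.6% and 14.2% of all genes, and 13 did not pass. The median log2 fold change was −0.34, beside −0.09 for all tested genes.

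C1rl and Cd93 rose. C1rl, which encodes a serine protease related to C1r, had 247, 259 and 349 reads with the fusion, against 39 to 72 in the controls, with every AML1/ETO library above every control. It rose 5.53-fold, to 19.2 ± 3.35 from 3.48 ± 0.848 CPM (log2 fold change 2.46, SE 0.44, edgeR adjusted p = 0.00169). Cd93, a surface glycoprotein once taken for a C1q receptor and known as AA4.1 on early progenitors, rose 1.61-fold, to 433 ± 141 from 269 ± 28.8 CPM (log2 fold change 0.69, SE 0.19, edgeR adjusted p = 0.02). Without AML1/ETO library 1, the highest, Cd93 no longer passed (adjusted p = 0.0754 in edgeR).

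C1qbp and Itgax fell. C1qbp, a mostly mitochondrial protein that can bind the globular heads of C1q, had 408, 1359 and 880 reads with the fusion, against 1969 to 2666 in the controls. It fell 2.2-fold, to 57.8 ± 27.0 from 127 ± 12.5 CPM (log2 fold change −1.14, SE 0.27, edgeR adjusted p = 0.00995). Itgax, the alpha chain of complement receptor 4, had 66 to 187 reads in the controls and none with the fusion. With 3 reads per library as the floor, which covers counting error only, it was at least 34.1-fold lower (edgeR adjusted p = 0.00093). Itgam, the alpha chain of complement receptor 3, had 0, 65 and 9 reads against 7 to 235 and did not pass (log2 fold change −1.92, SE 1.42, edgeR adjusted p = 0.368). Their shared beta chain, Itgb2, stood at 16.2 ± 6.99 against 26.1 ± 4.33 CPM (edgeR adjusted p = 0.152), and passed without AML1/ETO library 2 (log2 fold change −1.09, edgeR adjusted p = 0.0383).

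Of the regulators outside the 9 genes, Cr1l was the most abundant. It encodes Crry, the rodent membrane protein with activities of both CD55 and CD46. It stood at 83.4 ± 11.3 CPM (SD, n = 3) and 64.4 ± 20.6 CPM (SD, n = 5), with overlapping groups (log2 fold change 0.37, SE 0.26, edgeR adjusted p = 0.332). Cd46 had 197, 128 and 50 reads in the AML1/ETO libraries and 0, 54, 0, 75 and 32 in the controls (log2 fold change 2.22, SE 1.41, edgeR adjusted p = 0.287). C1ra, the C1r protease gene, stood at 4.53 ± 2.1 against 5.73 ± 2.08 CPM (edgeR adjusted p = 0.788). For C1ra the group difference was smaller than the SD of either group. For Cr1l it was smaller than the control SD but larger than the AML1/ETO SD.

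**Figure D3:**
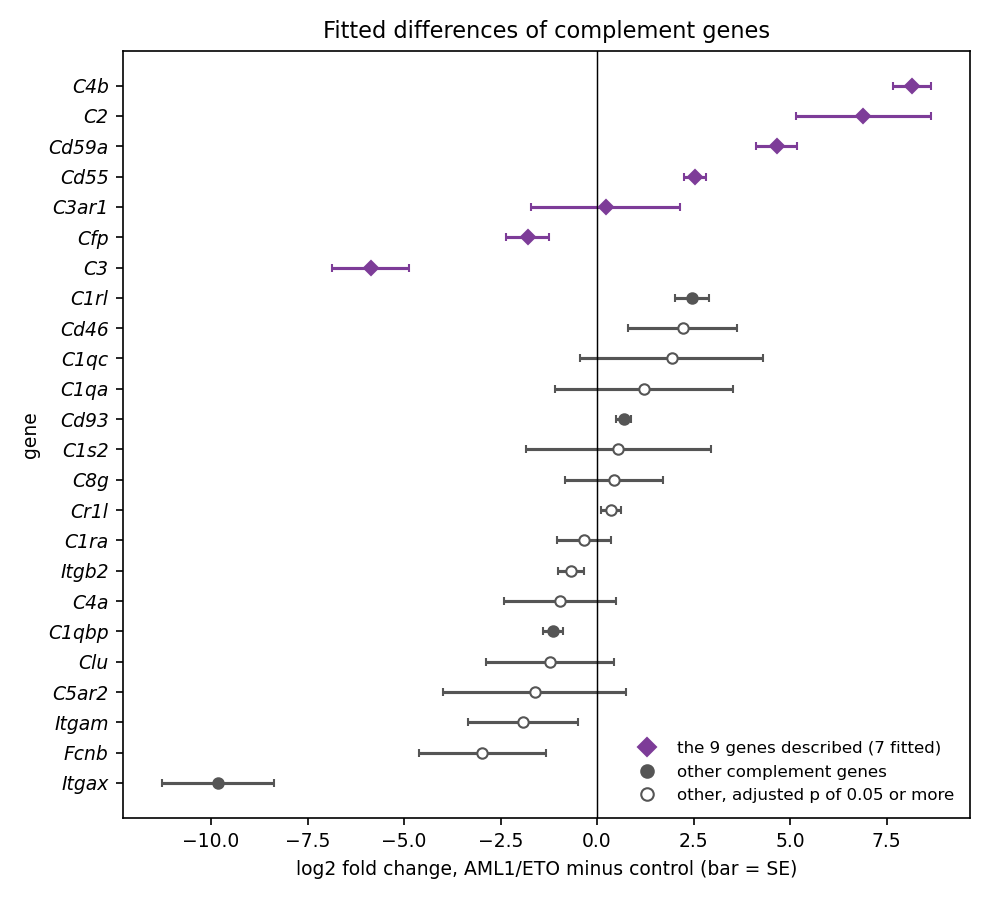
Fitted log2 fold change, AML1/ETO minus control, with its SE, of the 7 fitted genes of the 9 described (diamonds) and the 17 other tested complement genes (circles; open where the adjusted p was 0.05 or more). The diamonds run from −5.87 for C3 to 8.17 for C4b, and 13 of the 17 circles are open.

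C4b, Cfb and C2 lie in the class III part of the major histocompatibility complex, so the genes around them were examined as well. Among 17 other protein-coding genes between C4b and C2 or in the 5 positions on each side, with C4a left out because it is counted among the complement genes, 12 were tested, 5 rose and none fell, beside 11.6% and 14.2% of all tested genes. Their median log2 fold change was 0.34. Neu1, the lysosomal sialidase gene, rose 4.52-fold (log2 fold change 2.18, SE 0.34, edgeR adjusted p = 0.000748), and Ehmt2, which encodes the histone methyltransferase G9a, rose 3.67-fold (log2 fold change 1.87, SE 0.13, edgeR adjusted p = 2.85e-06). Zbtb12, Stk19 and Skiv2l, which encodes an RNA helicase of the cytoplasmic exosome, rose 1.84-, 1.69- and 1.67-fold. The groups of Zbtb12 overlapped, at 48 CPM in the lowest AML1/ETO library and 51.9 CPM in the highest control. Zbtb12 did not pass without AML1/ETO library 2 or 3 or control library 5 (edgeR adjusted p = 0.0687, 0.146 and 0.0523), and Stk19 did not pass without 7 of the 8 libraries left out in turn (edgeR adjusted p from 0.0529 to 0.124). With library totals as the only scaling neither Zbtb12 nor Stk19 passed (edgeR adjusted p = 0.0599 and 0.0826). Atf6b and Ppt2, on the other side of C4b, stood at log2 fold changes of −0.07 and 0.02 (edgeR adjusted p = 0.913 and 0.982). Differences of the size seen for C4b and C2 were not found in the 12 tested neighbours.

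**Figure D4:**
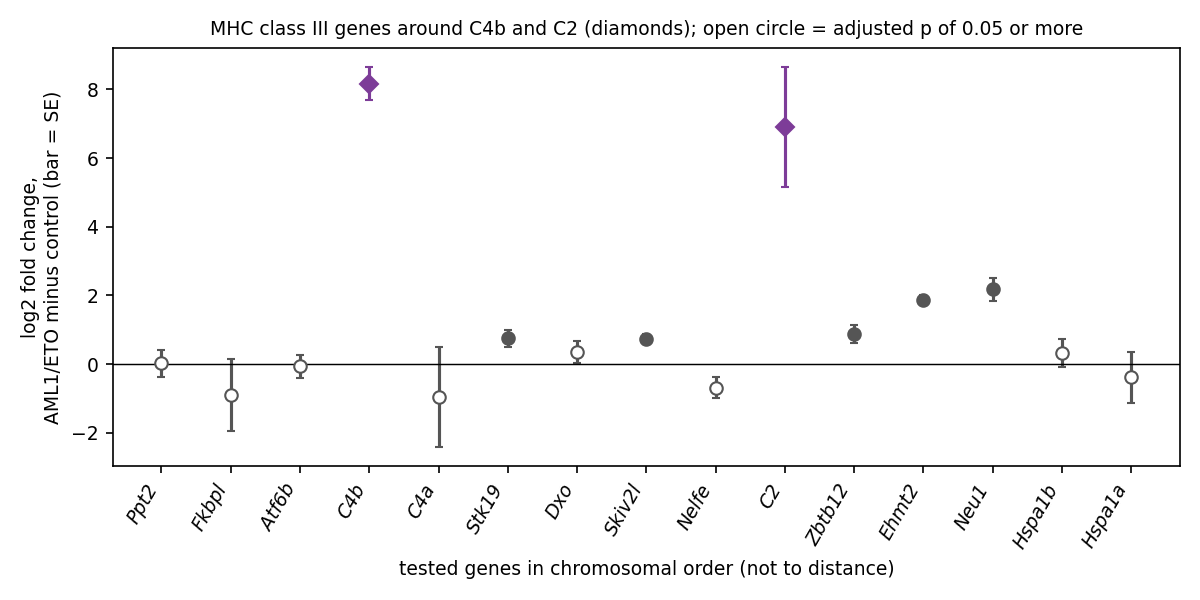
Fitted log2 fold change with its SE of the tested genes around C4b and C2, C4a included, in chromosomal order with equal spacing; diamonds are C4b and C2, filled circles neighbours with an adjusted p under 0.05, open circles the rest. C4b and C2 stand at 8.17 and 6.90, and the highest neighbour, Neu1, at 2.18.

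Markers of mature cells were read in the same libraries. The LSK gate leaves out cells with lineage markers and keeps cells with c-Kit and Sca-1. How far the sort removed each cell type named below was not tested. The 10 mast cell and basophil markers summed to 2504 to 6796 CPM in the AML1/ETO libraries, against 33.8 to 87.5 CPM in the controls. Of the 7 tested, 5 rose and 1 fell: the carboxypeptidase Cpa3 stood at 3844 against 14.3 CPM and the chymase Cma1 at 148 against 0, whereas the basophil protease Prss34 was at 0 in all AML1/ETO libraries. Cma1, Mcpt4, Tpsab1 and Tpsb2 were at 0 in all controls. With the fusion Mcpt4, Tpsab1 and Tpsb2, none of them tested, ranged from 0 to 17.6, 0 to 8.4 and 0 to 25.7 CPM. Cpa3 alone, at 1771 to 6135 CPM, made up most of the sum with the fusion. The basophil protease gene Mcpt8 did not pass (log2 fold change 0.91, edgeR adjusted p = 0.481), and 3 of the 10 were not tested. The part of such cells in the levels of C4b, C2, Cd55 and Cd59a was not tested.

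Some markers of neutrophils and monocytes fell with C3 and Cfp. The 11 neutrophil markers summed to 0.0654 to 68.3 CPM in the AML1/ETO libraries, against 125 to 308 CPM in the controls, and 3 of 8 tested fell and none rose; Mmp9 and Cxcr2 were at 0 in all AML1/ETO libraries, Mmp8 in all controls and Ly6g in both groups. The 10 monocyte and macrophage markers summed to 59.5 to 92.4 CPM and 167 to 348 CPM, and 3 of 8 tested fell and none rose, with Cx3cr1 at 0 in all AML1/ETO libraries and Mrc1 and Fcgr1 at 0 in all controls. Mrc1 reached 6.28 CPM with the fusion. Cd68 (log2 fold change −0.47, edgeR adjusted p = 0.627) and Adgre1 (0.55, edgeR adjusted p = 0.895) did not pass. The 6 B cell markers summed to 5.3 to 10.8 CPM and 6.46 to 52.6 CPM, and 3 of 5 tested fell; Cd79a, Ebf1 and Pax5 were at 0 in the AML1/ETO libraries and Ms4a1 in both groups. The part of these cells in the levels of C3 and Cfp was not tested. Markers of other sources of complement were mixed. The liver gene Alb was at 0 in the AML1/ETO libraries and at most 1.05 CPM in the controls. The stromal, endothelial and liver list as a whole summed to 93.8 to 220 CPM and 39 to 70.9 CPM, mostly Pdgfrb (140 against 41.5 CPM), with Cxcl12, Lepr, Kdr and Alb at 0 in the AML1/ETO libraries and Cdh5 at 0 in both groups. Of the 3 tested, 1 rose (Pdgfrb) and 1 fell (Kdr). The 6 megakaryocyte and platelet markers summed to 191 to 641 CPM and 202 to 350 CPM; 1 of 4 tested rose and 2 fell. Gp9 and Vwf were at 0 in the AML1/ETO libraries, and Gp1bb and Ppbp in both groups. The 8 LSK and stem cell genes summed to 2872 to 4297 CPM and 1400 to 1757 CPM, and 7 rose.

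The genes nearest in pattern were found from the mean absolute difference of log2 CPM (prior count 2) over the 8 libraries, after centring each gene on its own mean, among 9579 named genes with a mean of at least 5 CPM outside X and Y. Cpa3 was nearest to C4b (0.57) and Myo16, an unconventional myosin gene without a control read, was next (0.70). The neutrophil granule gene Camp (0.28) and the haptoglobin gene Hp (0.40) were nearest to C3. Litaf (0.21) and Pik3ap1 (0.23), which encodes the adaptor BCAP, were nearest to Cfp. Cd55 was matched by Cd48 (0.22) and Camk2d (0.23). Frzb, a secreted Wnt antagonist gene, came within 0.56 of Cd59a and 0.47 of C2, with Map3k6 (0.60) next for Cd59a and Dusp1 (0.46) even closer to C2. C3ar1 had no close match, with Cyp11a1 at 1.27 and Il7r at 1.48. The distances include the difference between the groups, so a small distance does not show that genes vary together within a group. These distances are descriptions over the same 8 libraries, and the prior count shrinks the differences of genes with few reads: Dusp1 stood at 2102 against 70.9 CPM and Frzb at 39.6 against 2.57 CPM, smaller ratios than that of C2.

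**Figure D5:**
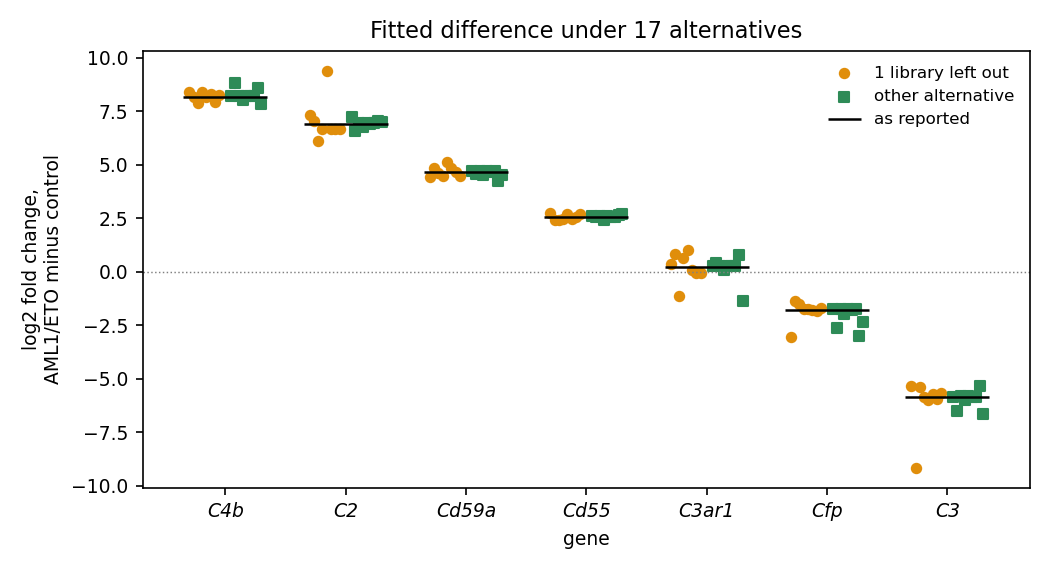
Fitted log2 fold change, AML1/ETO minus control, of the 7 fitted members as reported (black line) and under 17 alternatives: circles leave out 1 library, squares change the tool, scaling, filter or libraries. C4b stays between 7.85 and 8.81, Cd59a between 4.22 and 5.13 and Cd55 between 2.40 and 2.75, whereas C3ar1 lies on both sides of 0.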

How the data were processed

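The values deposited by the authors were raw read counts per Ensembl gene, with 1 column per library. The build mm10, featureCounts 1.5.0-p3 and HISAT2 2.0.5 are credited to the submitters' processing notes. No source used here names the annotation, the strand option or how reads with several matches were counted. Symbols are those of the deposited table, and positions and exon lengths are from GENCODE M21 on GRCm38, the assembly of mm10 (54495 identifiers matched, 37 did not).

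Counts of all 8 libraries were fitted in edgeR 4.0.16 (R 4.3.3; filterByExpr, TMM, glmQLFit and glmQLFTest, no covariates), two-sided, with Benjamini-Hochberg adjustment over 15009 genes and calls at an adjusted p under 0.05. Between-library variation, as edgeR's biological coefficient of variation, was 72.6%. CPM used TMM-scaled library sizes. SEs were derived from the F statistic. On simulated counts the procedure recovered 16% of 2-fold, 46% of 4-fold, 64% of 8-fold and 70% of 16-fold changes. Of its calls there, 4.85% were false. A far smaller share of genes was changed in the simulation than the 25.7% called in these libraries. The simulated rates therefore need not hold for this fit. A gene that did not pass may still differ. Alternatives were DESeq2 1.42.0, limma 3.58.1 (voom with quality weights), other scalings and filters, libraries left out, and the replicate number as a block. P-values measure only the spread between these libraries. The members, the gene lists and the tests were chosen with earlier results of these data known. Named were all 9 members, other complement genes that passed or had a mean of 5 CPM or more in either group, neighbours that passed, and the 2 genes nearest in pattern to each fitted member; further genes were chosen after their values were seen. The comparison of transcript windows and exons with those of other genes was also added after the data were seen. Planned protein comparisons of the copies were not made.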

Additional observations from a re-analysis of the deposited data

Results flagged for a closer look

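For 6 of the 31 complement genes with a read in the controls, 1 control library stood apart from the other 4. The usual chance rate of about 1 in 20 does not hold for genes at 0 in most controls, so 6 is not read as an excess. All 6 were scarce. C2 had 3 reads in control library 2 (0.176 CPM), the number that a count of 0 allows, and none in the other controls. Cd59b had 10 reads in the same library (0.586 CPM) and none in the other controls. Control library 4 alone held reads of Cfd, the factor D gene (15 reads, 0.873 CPM), and of Cpn2, a carboxypeptidase N subunit gene (16 reads, 0.932 CPM). It also had 37 reads of the complement receptor gene Cr2 (2.15 CPM), beside 10 in control library 5 and none in the other controls. Fcna, the ficolin A gene, had 23 reads in control library 5 (1.32 CPM) and none in the other controls.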

How the results depend on the processing

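Counts of members describe genes chosen on this contrast and support nothing. The number of members called lower was 1 with limma-voom, which lost C3, and 1 to 2 when single libraries were left out. Cfp was lost without any 1 of the 7 libraries other than AML1/ETO library 1. The number called higher was 3 to 4, since C2 did not pass without AML1/ETO library 3. Other complement genes called higher numbered 1 to 3 and lower 2 to 4 when libraries were left out. With the replicate block 951 genes were higher and 1098 lower, against 1734 and 2128 without it, 0 other complement genes were higher, and C2 did not pass. Nor did C1rl, Cd93, Stk19 and Zbtb12 (edgeR adjusted p = 0.0641, 0.0601, 0.111 and 0.0597). Control libraries 4 and 5 have no AML1/ETO library of the same number, so with the block they added nothing to the fitted differences. That fit thus rested on fewer libraries, and its fewer calls cannot be read as a sign of pairing. Deviations from the group means gave no sign of pairing by replicate number: libraries 1, 2 and 3 correlated at 0.0388, −0.039 and 0.0271 with those of the same number. On the second principal component of log2 CPM (14.3% of the variance), however, both first libraries stood apart. AML1/ETO library 1 was at 106 and control library 1 at 102, and the rest lay from −52.7 to −14.7. Scaling by library totals alone gave 34.2% of called genes as higher, against 44.9%. Why these values moved was not tested. Stk19 was also lost under limma-voom (adjusted p = 0.0911) and with both first libraries left out (edgeR adjusted p = 0.152). Cfb and C5ar1 had too few reads for the fit.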

Other observations

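The C1q genes, which macrophages express together, were unevenly detected; C1qa and C1qc did not pass (edgeR adjusted p = 0.769 and 0.622), and C1qb was too scarce to be tested. C1qa, C1qb and C1qc had 56, 48 and 91 reads in AML1/ETO library 1. In AML1/ETO library 3 C1qb had 39 reads and the other two none, and AML1/ETO library 2 had no read of any of them. In the controls C1qb was at 0, while C1qa had up to 38 reads and C1qc up to 35.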
